A study of Homo sapiens with 6 samples.

Results

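The cytosolic ribosomal protein genes were examined after knockdown of STIL in EJ cells, a long-established line from human bladder cancer. The genes were taken by symbol: RPL or RPS followed by a digit, together with RPLP0, RPLP1, RPLP2 and RPSA, while the ribosomal S6 kinases, whose symbols begin with RPS6K, were left out. This gave 88 of the 15953 genes in the expression tables. Of these, 46 encode canonical proteins of the large subunit and 31 encode canonical proteins of the small subunit. Another 7 are paralogues (RPL3L, RPL7L1, RPL22L1, RPL26L1, RPL36AL, RPL39L and RPS27L) and 3 are readthrough transcripts that join a ribosomal protein gene to its neighbour. The last, RPS19BP1, encodes a nucleolar protein that binds RPS19 and is not a ribosomal protein. Genes at other symbols of this family, among them RPL10L, RPS4Y1 and RPS4Y2, were not analysed here.

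RNA-seq was conducted on 6 libraries of total RNA. The control group (shNC) and the STIL-knockdown group (shSTIL) each had 3 libraries, from cells infected with lentivirus for a negative control hairpin or a hairpin against STIL. The number of hairpins is not given in the sources used here, nor is it stated whether the replicates came from separate cultures, so the p-values measure only the spread between these libraries. The labels call the construct sh whereas the headings of the tables call it si, and libraries were grouped by the labels. Expression is given as log2 CPM, read counts scaled to the size of each library and put on the log2 scale, with 16214771 to 16901634 reads per library.

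STIL was at 5.98 to 6.10 log2 CPM in control and 4.01 to 4.06 log2 CPM in STIL-knockdown libraries. Of the fixed markers, KRT18, CD44, KRT8, VIM and KRT7 were well expressed. KRT8 was at 8.54 to 8.59 log2 CPM in control and 7.81 to 7.90 in STIL-knockdown libraries, VIM at 10.50 to 10.54 and 9.82 to 9.86, and KRT7 at 6.37 to 6.59 and 6.96 to 7.02. CD44 was at 9.98 to 10.05 in control and 9.90 to 9.94 in STIL-knockdown libraries. The groups of KRT8, VIM, KRT7 and CD44 did not overlap, and the part of these genes in the results was not tested. Of the luminal markers PPARG was at 4.22 to 4.37 log2 CPM in control and 4.50 to 4.58 in STIL-knockdown libraries. UPK1A was at 0.88 to 1.12 in control and 0.31 to 0.54 in STIL-knockdown libraries, and the groups of neither gene overlapped. UPK1B was at -0.09 to 0.45 in control and -1.28 to -0.38 in STIL-knockdown libraries. The epithelial EPCAM (-0.01 to 0.43 over all libraries) lay near 0. UPK2, GATA3, the basal KRT5, the epithelial CDH1 and the endothelial PECAM1 lay below 0 log2 CPM in every library. The groups of UPK1B and PECAM1 did not overlap, at low levels. The part of these markers in the results was not tested either. KRT19, UPK3A, KRT6A, KRT14 and PTPRC were not analysed here. In bulk RNA of this kind, fewer cells of a type and less RNA per cell cannot be told apart.

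The ribosome translates mRNA into protein. Its small subunit reads the mRNA and its large subunit joins amino acids, and each subunit holds ribosomal RNA and a set of proteins that, with few exceptions, are present in a single copy. The mRNAs of these proteins begin with a run of pyrimidines, the terminal oligopyrimidine tract, through which growth signals passing the kinase complex mTORC1 control how strongly they are translated. A few of the proteins have a close paralogue that can take their place.

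The start of the genes was looked up in RefSeq promoters (GRCh38.p14), which matched 69 of the 88 genes. The windows below run 5′ to 3′ on the strand of the gene, from 15 bases before the RefSeq start through the 15 bases from it on, and are shown for the genes whose values are described in most detail. Capitals mark the run of at least 5 C or T that starts with C and begins within 10 bases of the start; RPS27L holds none. The windows lie at chr3:101686704-101686733 (RPL24, minus strand), chr12:56041903-56041932 (RPS26, plus strand), chr9:133348203-133348232 (RPL7A, plus strand), chr3:197950175-197950204 (RPL35A, plus strand), chr22:39319609-39319638 (RPL3, minus strand), chr6:33272060-33272089 (RPS18, plus strand), chr1:153990747-153990776 (RPS27, plus strand), chr15:63157463-63157492 (RPS27L, minus strand), chr1:6199581-6199610 (RPL22, minus strand) and chr3:170870181-170870210 (RPL22L1, minus strand).
RPL24: ttcccatgattCTCTCTTTCTTTTCgccat
RPS26: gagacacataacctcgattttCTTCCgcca
RPL7A: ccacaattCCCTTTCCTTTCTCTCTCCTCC
RPL35A: cggcggggcctcgtCCTTCTCTTaccgcca
RPL3: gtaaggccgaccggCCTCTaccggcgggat
RPS18: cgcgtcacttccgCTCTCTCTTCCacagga
RPS27: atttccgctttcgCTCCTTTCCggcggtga
RPS27L: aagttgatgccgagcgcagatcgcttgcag
RPL22: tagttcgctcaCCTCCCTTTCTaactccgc
RPL22L1: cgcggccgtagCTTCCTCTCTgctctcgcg

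Such a run was found in 33 of 38 large subunit windows (86.8%) and 22 of 24 small subunit windows (91.7%). Over the 12621 genes of the tables with a promoter the share was 34.2%. Of the 5 paralogues with a window, 2 held it. The word CCGGAAG, a core that ETS factors bind, was present on either strand of the promoter, from 250 bases before the start to 50 after it, in 31.6% of large, 37.5% of small and 16.7% of all promoters. The word AAGATGG, read by YY1, was present in 13.2%, 12.5% and 6.85%, the TATA box TATAAA in 7.89%, 8.33% and 7.12%, and the GC box GGGCGG in 52.6%, 58.3% and 65.7%. These are matches of letters and not sites shown to be bound.

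The 77 canonical genes were abundant and changed little. Their mean level ran from 6.37 to 12.16 log2 CPM, and all 77 lay far above the low end of the tables. Among them, 59 (76.6%) had a log2 fold change between -0.2 and 0.2, against 35.4% of all genes. Only RPL24 and RPS26 moved by more than 0.4 on the log2 scale (2.60%), against 37.4% of all genes. The median size of the log2 fold change, without its sign, was 0.09 in the canonical genes and 0.30 in all genes. The plot of log2 fold changes beside all genes shows this narrow distribution. The set of all genes reaches down to a mean of -3.04 log2 CPM. Its median standard error of the log2 fold change was 0.07, against 0.04 in the canonical genes. No comparison with genes of like level was made, so the part of abundance in the narrow distribution was not tested.

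**Figure D1:**
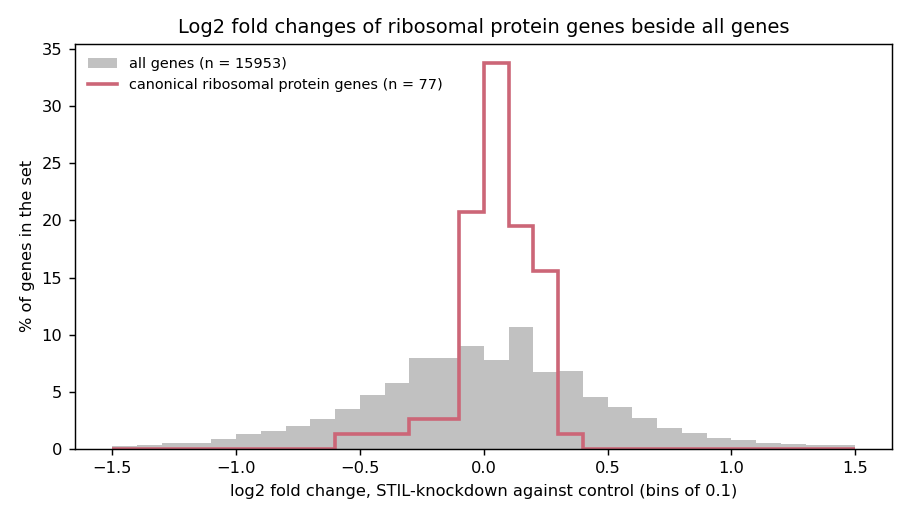
Histogram of log2 fold changes (STIL-knockdown against control, bins of 0.1) as percent of genes in each set, for all 15953 genes in grey and the 77 canonical ribosomal protein genes as a red line. The canonical genes lie between -0.54 and 0.32, whereas the grey distribution extends well past both ends.

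Of the 88 genes, 30 were called at a limma adjusted p under 0.01, which is 34.1%. Over all genes 47.1% were called. Higher in STIL-knockdown cells were 22 of the 88 (against 23.5% of all genes), and lower were 8 (against 23.6%). The values of the control and STIL-knockdown libraries did not overlap for 38 of the 88 genes (43.2%), against 60.3% of all genes. Within the canonical genes 24 of 77 (31.2%) were called, 19 higher and 5 lower. Among the 11319 genes with a mean level of at least 1 log2 CPM, fitted alone, 65.8% were called and 29 of the 77 canonical genes (37.7%). With each library brought to the same quantiles, 41 of the 88 genes were called higher, against 24.1% of all genes. In the same fit 54.5% of the canonical genes and 46% of all genes were called in either direction. Without the mean-variance trend of limma 11 of the 24 canonical calls were kept. In that fit 14.3% of the canonical genes and 36.7% of all genes were called.

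The 24 calls were followed by name through fits that each left out a library. Without control replicate 1, 2 and 3, 10, 13 and 19 of them were kept. Without STIL-knockdown replicate 1, 2 and 3, 13, 9 and 8 were kept. The groups of these 24 genes did not overlap, so no left-out library could reverse a direction. That none changed direction therefore says nothing of stability. In the same fits the share of all genes called fell to between 30.7% and 35.3%. RPL3, RPL5, RPL7A, RPL15, RPL26, RPL34, RPL36A and RPS6 kept their call in each of these fits and in every other alternative fit.

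Large and small subunit genes were close in their median. The median log2 fold change was 0.05 in both subunits and 0.01 in all genes. Of the large subunit genes 34 of 46 had a log2 fold change above 0 and of the small subunit genes 20 of 31. Called were 16 of 46 large subunit genes (34.8%; 13 higher and 3 lower) and 8 of 31 small subunit genes (25.8%; 6 higher and 2 lower), both below the share of all genes. With quantile normalization the counts were 24 higher for the large subunit, and 14 higher and 1 lower for the small subunit, with medians of 0.13 and 0.12. Over both subunits 38 were higher and 4 lower in that fit. This was 54.5% of the canonical genes against 46% of all genes, so there the share was not below that of all genes. The groups did not overlap for 21 large (45.7%) and 10 small (32.3%) subunit genes.

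**Figure D2:**
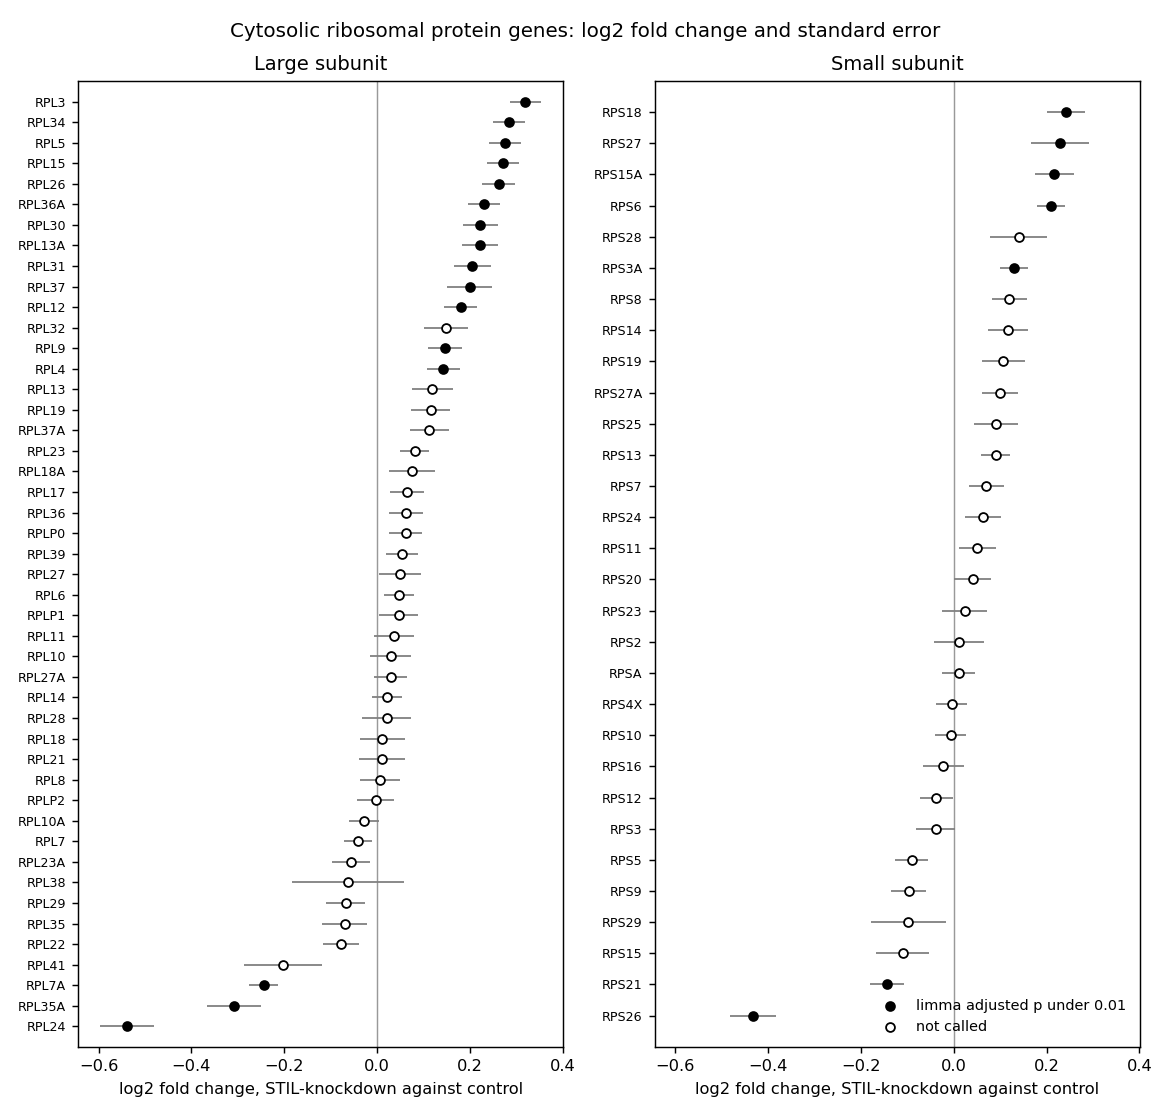
Log2 fold change (STIL-knockdown against control, x axis) of the 46 large subunit genes and all but 1 of the 31 small subunit genes, sorted, with the limma standard error as a bar; filled points have an adjusted p under 0.01. Most points lie within 0.2 of zero, RPL24 and RPS26 lie farthest to the left, and RPL3 and RPS18 farthest to the right.

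Summed over genes, the reads of the large subunit were 4.49%, 4.30% and 4.56% of control libraries and 4.79%, 4.89% and 4.88% of STIL-knockdown libraries. Every STIL-knockdown library lay above every control library, with means of 4.45% ± 0.14 and 4.85% ± 0.05 (SD, n = 3). The reads of the small subunit were 2.69%, 2.52% and 2.71% of control and 2.77%, 2.84% and 2.83% of STIL-knockdown libraries, with means of 2.64% ± 0.10 and 2.82% ± 0.04 (SD, n = 3). The groups again did not overlap. The difference was 0.41 percentage points for the large and 0.18 for the small subunit. After the scaling in the deposited values the difference of the large subunit was 0.26 percentage points and that of the small subunit was 0.09. On that scale control replicate 3 (2.76%) lay above STIL-knockdown replicate 1 (2.74%) for the small subunit, so the groups overlapped.

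The reads of large subunit genes divided by those of small subunit genes do not depend on the scaling. This ratio was 1.67, 1.70 and 1.68 in control libraries and 1.73, 1.72 and 1.72 in STIL-knockdown libraries. Each STIL-knockdown library lay above each control library, by a difference in means of 0.04 (1.69 ± 0.02 against 1.72 ± 0.005, SD, n = 3). No test was run on this sum over chosen genes.

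**Figure D3:**
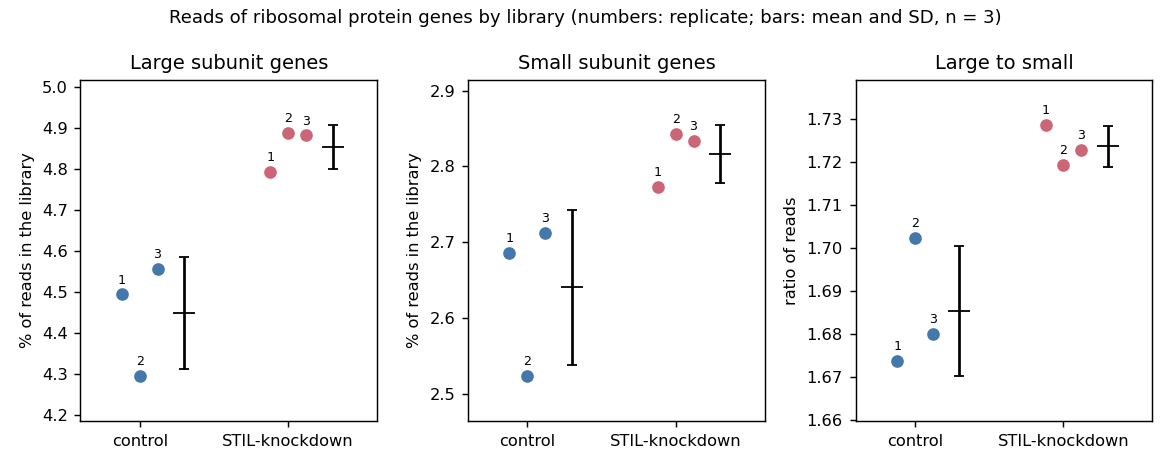
Percent of a library's reads on large subunit genes (left) and small subunit genes (middle), and their ratio (right), with 1 point per library marked by its replicate number and a bar for mean and SD (n = 3). Both shares and the ratio are higher in all STIL-knockdown libraries, and control replicate 2 has the lowest shares. The y axes do not start at zero.

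The control libraries differed more among themselves than the STIL-knockdown libraries did. The median SD over the canonical genes was 0.07 log2 CPM in control and 0.04 in STIL-knockdown libraries, against 0.08 and 0.07 over all genes. The SD was larger in the controls for 63 of the 77 genes, and for 8956 of all 15953 genes. Control replicate 2 was the lowest of the controls for 58 of the 77 genes, whereas it was the lowest for 5497 of all 15953 genes. Control replicate 3 was the highest for 49 of the 77, and for 4857 of all genes. Without control replicate 2 the large subunit had a median log2 fold change of 0.03 and the small subunit of 0.01, and without control replicate 3 these were 0.07 and 0.09. The part of these libraries in the differences was not tested further.

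Within the controls the deviation of a canonical gene from its group mean varied with the GC content of its coding sequence. Over the 77 genes of 1 library each, Pearson's r was 0.63 in control replicate 1, -0.50 in control replicate 2 and -0.28 in control replicate 3. In the STIL-knockdown libraries it was -0.12, -0.17 and 0.40. These are descriptions across genes that share a library and its depth. The deviations of a gene cancel out within its group, so a positive r in 1 library comes with negative r elsewhere in that group. The log2 fold change itself had r = -0.15 with GC content (42.5% to 63.0%), 0.17 with the log2 of coding length (75 to 1281 bases) and 0.31 with the mean level over the same 77 genes.

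**Figure D4:**
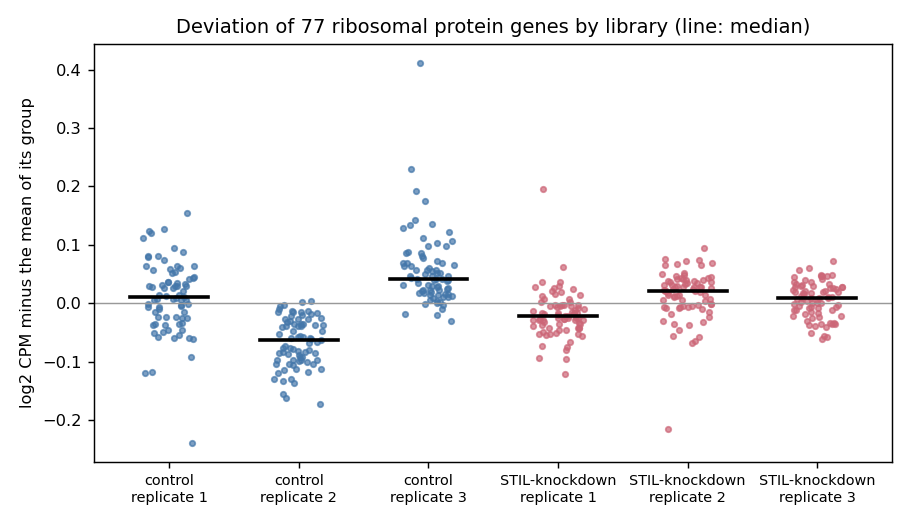
Log2 CPM of each of the 77 canonical genes minus the mean of its group (y axis), by library, with 1 point per gene and a line at the median. The points of control replicate 2 lie mostly below zero with a median of -0.06, those of control replicate 3 mostly above with a median of 0.04, and those of STIL-knockdown libraries lie closer to zero.

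Levels of different genes were compared per kilobase of coding sequence in control libraries. The median of the canonical genes was 1703 CPM per kilobase, with 1804 in the large and 1435 in the small subunit. RPL41, whose product is a very short peptide between the subunits, was highest at 18061 CPM per kilobase, and RPS2, at the mRNA entry channel, was at 5195. RPS29 was lowest at 512 CPM per kilobase. The coding length leaves out the untranslated ends, which weighs most on the shortest genes. RPL41 has 75 coding bases in a transcript of 699, and RPS29 has 168 coding bases in a transcript of 677. Their places as highest and lowest depend on this choice of length.

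Among the large subunit genes RPL3, whose protein reaches toward the catalytic centre, had the highest log2 fold change. It was at 10.999, 11.001 and 11.030 log2 CPM in control and 11.33, 11.32 and 11.34 log2 CPM in STIL-knockdown libraries. The groups were far apart beside their spread. RPL3 rose by a log2 fold change of 0.32 (SE, the standard error, 0.03, limma adjusted p = 2.4e-06), a 1.25-fold level, and with any library left out the log2 fold change was between 0.31 and 0.33. Over the 20 ways to label 3 against 3 libraries, the exact permutation test, which is two-sided, gave p = 0.1, the smallest it can give, for RPL3 and for each other gene below whose groups did not overlap.

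RPL34 was at 8.45, 8.48 and 8.55 log2 CPM in control and 8.75, 8.81 and 8.77 in STIL-knockdown libraries, and rose by 0.28 on the log2 scale (limma adjusted p = 9.0e-06). RPL15 was at 10.55, 10.48 and 10.53 in control and 10.76, 10.83 and 10.78 in STIL-knockdown libraries, and rose by 0.27 (adjusted p = 1.6e-05 with limma). RPL26, which sits beside the exit of the peptide tunnel, was at 10.39, 10.34 and 10.33 in control and 10.56, 10.65 and 10.63 in STIL-knockdown libraries, and rose by 0.26 (limma adjusted p = 2.7e-05). In all 3 genes every STIL-knockdown library lay above every control library. The other 8 large subunit genes called higher, RPL36A, RPL30, RPL13A, RPL31, RPL37, RPL12, RPL9 and RPL4, had log2 fold changes from 0.14 to 0.23. Of these only RPL36A kept its call with each library left out. RPL13A lost it in 3 of the 6 fits, RPL30 in 4, RPL4, RPL9, RPL12 and RPL31 in 5 and RPL37 in 6, with limma adjusted p of 0.0101 to 0.114 where the call was lost.

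RPL5 and RPL11 form a particle with the smallest ribosomal RNA that enters the large subunit during assembly and that, when free, binds MDM2, the ligase acting on p53. RPL5 was at 9.47, 9.47 and 9.55 log2 CPM in control and 9.76, 9.73 and 9.81 in STIL-knockdown libraries. It rose by 0.27 on the log2 scale (limma adjusted p = 1.3e-05) with no overlap. RPL11 was at 10.11, 9.98 and 10.15 in control and 10.15, 10.07 and 10.13 in STIL-knockdown libraries, which overlap, with a log2 fold change of 0.04 at a limma adjusted p of 0.521. The difference between RPL5 and RPL11 was not tested. With quantile normalization the RPL11 log2 fold change was 0.17 (limma adjusted p = 6.3e-04).

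The stalk of the large subunit, which recruits the factors of elongation, is built of RPLP0, RPLP1 and RPLP2. RPLP0 was at 11.31, 11.23 and 11.30 log2 CPM in control and 11.34, 11.34 and 11.35 in STIL-knockdown libraries, and its log2 fold change was 0.06 (limma adjusted p = 0.174). RPLP1 had a log2 fold change of 0.05 at a limma adjusted p of 0.386 and RPLP2 of -0.003 (limma adjusted p = 0.961), both with overlapping groups. None of the stalk genes was called by limma on the deposited values, by edgeR or by DESeq2, although the groups of RPLP0 did not overlap. With quantile normalization the RPLP0 log2 fold change was 0.22 (limma adjusted p = 2.3e-05).

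RPL24 encodes a protein that joins the large subunit late, in the cytoplasm, and forms a bridge to the small subunit. It was at 9.11, 9.01 and 9.27 log2 CPM in control and 8.52, 8.69 and 8.57 in STIL-knockdown libraries. All STIL-knockdown libraries lay below all controls, although the spread within both groups was wider than that of RPL3. RPL24 fell by 0.54 on the log2 scale (SE 0.06, limma adjusted p = 3.1e-06), to 68.9% of the control level. It ranked number 2053 by fall among the 15953 genes. Without STIL-knockdown replicate 3 the limma adjusted p was 0.0127, above the threshold, and with each other library left out the call was kept. The log2 fold change in these fits was -0.60 to -0.47.

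RPL35A, a gene mutated in Diamond-Blackfan anaemia, was at 8.42, 8.49 and 8.72 log2 CPM in control and 8.21, 8.26 and 8.23 in STIL-knockdown libraries. The groups did not overlap, but control replicate 3 stood above the other controls. RPL35A fell by 0.31 (limma adjusted p = 4.7e-04). The call was kept only without control replicate 3, and without control replicates 1 and 2 and STIL-knockdown replicates 1, 2 and 3 the limma adjusted p was 0.0124, 0.0317, 0.0607, 0.0471 and 0.0618.

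RPL7A, whose introns host small nucleolar RNAs, was at 10.26, 10.23 and 10.28 log2 CPM in control and 9.99, 10.03 and 10.02 in STIL-knockdown libraries. The spread within a group was small beside the distance between groups. RPL7A fell by 0.24 (limma adjusted p = 1.4e-05) and kept its call with each library left out. RPL41 was at 10.39, 10.27 and 10.54 in control and 10.39, 9.98 and 10.22 in STIL-knockdown libraries, which overlap, with a log2 fold change of -0.20 at a limma adjusted p of 0.0585. With edgeR on recovered reads the RPL41 log2 fold change was -0.20 with an adjusted p of 0.00505. RPL38, named after its values were seen, had the largest spread among controls of the canonical genes. It was at 7.54, 7.61 and 8.19 log2 CPM in control and 7.78, 7.71 and 7.66 in STIL-knockdown libraries.

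In the small subunit RPS18, at its head, was at 10.11, 10.04 and 10.15 log2 CPM in control and 10.29, 10.42 and 10.33 in STIL-knockdown libraries. It rose by 0.24 (limma adjusted p = 1.7e-04) with no overlap. RPS6, the protein that the S6 kinases phosphorylate when mTORC1 is active, was at 10.11, 10.07 and 10.11 in control and 10.30, 10.31 and 10.31 in STIL-knockdown libraries. It rose by 0.21 (limma adjusted p = 5.6e-05), and it was the only called small subunit gene that kept its call with each library left out. RPS18 lost it without control replicates 1 and 2 and STIL-knockdown replicates 2 and 3 (limma adjusted p of 0.0172, 0.0139, 0.0131 and 0.0216).

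RPS15A, RPS27 and RPS3A also rose, by 0.22, 0.23 and 0.13 on the log2 scale. Their limma adjusted p was 5.9e-04, 0.00634 and 0.00221. RPS27 kept its call only without control replicate 3, and its limma adjusted p was 0.128 to 0.171 with the others left out. RPS15A kept it only without STIL-knockdown replicate 1 (0.0166 to 0.0506 with the others left out), and RPS3A only without control replicates 1 and 3 (0.0107 to 0.0136).

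RPS26 encodes a protein at the exit of the mRNA channel that contacts the mRNA ahead of the start codon. It was at 8.48, 8.31 and 8.56 log2 CPM in control and 8.0, 8.0 and 8.05 in STIL-knockdown libraries. All STIL-knockdown libraries lay below all controls and close to each other. RPS26 fell by 0.43 (SE 0.05, limma adjusted p = 6.4e-06), to 74.1% of the control level. Its log2 fold change was -0.50 to -0.38 with a library left out, but the limma adjusted p was above the threshold without control replicate 1 (0.0101) and without STIL-knockdown replicates 1, 2 and 3 (0.0119, 0.0119 and 0.0108).

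RPS21 was at 8.21, 8.09 and 8.17 log2 CPM in control and 8.0, 7.97 and 8.06 in STIL-knockdown libraries, and fell by 0.14 (limma adjusted p = 0.00489). It kept its call only without control replicate 2, with 0.0322 to 0.0811 otherwise. RPS15, RPS29 and RPS9 had log2 fold changes of -0.11, -0.10 and -0.10 and were not called (limma adjusted p of 0.121, 0.332 and 0.0393). Without control replicate 2 RPS9 was called (log2 fold change -0.14, limma adjusted p = 0.00329) and RPS15 was at -0.19 (limma adjusted p = 0.0104). Without control replicate 3 RPS29 was at 0.02 (limma adjusted p = 0.85). RPSA, known also as the precursor of the laminin receptor, was at 10.25 to 10.33 log2 CPM in control and 10.27 to 10.34 in STIL-knockdown libraries, with a log2 fold change of 0.01 at a limma adjusted p of 0.823. The RPSA log2 fold change was 0.12 with quantile normalization (limma adjusted p = 0.00638).

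The genes with a pyrimidine run at their start were not uniform in direction. Of the 55 canonical genes that held the run, 18 were called, 13 higher and 5 lower, with a median log2 fold change of 0.05, while 47.1% of all genes were called. Of the 15 canonical genes without a window 5 were called, all higher. RPL7A has a run of 23 bases, which extends past the end of the window shown, and RPL24 a run of 14 bases, and both genes fell. The window of RPL3 has a run of 5 bases and RPL3 rose, and that of RPS26 also has a run of 5 bases and RPS26 fell. Of the 7 canonical genes with a window but no run, RPL15 was called.

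The paralogues differed from the canonical genes in their range: 5 of 7 were called (71.4%, against 47.1% of all genes), 2 higher and 3 lower. Over the genes with a mean of at least 1 log2 CPM, fitted alone, the share was 65.8%. RPL22L1 stood far from every other gene of the set. It lies at chr3:170864875-170870483 on the minus strand (GRCh38, GENCODE 29) and encodes the paralogue of RPL22, an RNA-binding protein of the large subunit. RPL22L1 was at 3.76, 3.81 and 3.66 log2 CPM in control (199 to 226 reads) and 5.76, 5.85 and 5.84 in STIL-knockdown libraries (922 to 993 reads). It rose by 2.08 on the log2 scale (SE 0.06, limma adjusted p = 1.4e-11), a 4.21-fold level, and ranked number 40 by rise among the 15953 genes. With a library left out the log2 fold change was 2.03 to 2.11, and the call was kept each time.

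RPL22, at chr1:6185020-6209389 on the minus strand, was at 8.88, 8.91 and 9.03 log2 CPM in control and 8.86, 8.90 and 8.83 in STIL-knockdown libraries. The groups overlapped, with a log2 fold change of -0.08 at a limma adjusted p of 0.112. The reads of RPL22L1 were 2.85%, 2.88% and 2.40% of those of RPL22 in control libraries and 11.6%, 12.1% and 12.6% in STIL-knockdown libraries. The log2 ratio of RPL22L1 to RPL22 was thus 2.15 higher, with no overlap (exact two-sided permutation p = 0.1, the smallest that 3 against 3 allows).

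RSEM divides reads among transcripts that share sequence, so the likeness of the pair bears on these values. The coding sequences of RPL22 (384 bases without the stop codon) and RPL22L1 (366 bases) are 65.4% identical in alignment, and the longest run of bases shared by their principal transcripts is 17.

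RPS27L is the paralogue of RPS27 and a known target of p53. It was at 4.53, 4.77 and 4.86 log2 CPM in control and 4.39, 4.34 and 4.14 in STIL-knockdown libraries, against 8.98, 8.97 and 9.26 and then 9.28, 9.34 and 9.28 for RPS27. RPS27L fell by 0.43 (limma adjusted p = 0.00101) while RPS27 rose. The call of RPS27L was kept only without control replicate 1, with a limma adjusted p of 0.0303 to 0.0551 when any other library was left out. Its reads were 4.56%, 5.43% and 4.69% of those of RPS27 in control and 3.36%, 3.10% and 2.83% in STIL-knockdown libraries, with no overlap. The change of the log2 ratio was -0.66 (exact permutation p = 0.1).

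RPL26L1 was at 5.44, 5.32 and 5.37 log2 CPM in control and 4.89, 5.11 and 5.02 in STIL-knockdown libraries, and fell by 0.37 (limma adjusted p = 1.6e-04) while RPL26 rose. Its call was lost without control replicates 1, 2 and 3 (0.0169, 0.0105 and 0.0157) and without STIL-knockdown replicate 3 (0.0205). Its reads went from 3.08% to 3.23% of those of RPL26 in control to 1.95% to 2.15% in STIL-knockdown libraries. The coding sequences of the pair are 84.1% identical, with a longest shared run of 20 bases.

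RPL7L1, which works in ribosome assembly rather than in the finished ribosome, was at 7.74, 7.82 and 7.83 log2 CPM in control and 7.60, 7.60 and 7.60 in STIL-knockdown libraries. It fell by 0.19 (limma adjusted p = 1.8e-04, and 0.0108 without STIL-knockdown replicate 3). RPL7 had a log2 fold change of -0.04 at a limma adjusted p of 0.283. RPL36AL had a log2 fold change of -0.09 at a limma adjusted p of 0.161, with overlapping groups, and its reads were 18.25% to 20.03% of those of RPL36A in control and 14.7% to 16.3% in STIL-knockdown libraries. The coding sequences of RPL36A and RPL36AL are 89.9% identical, with a longest shared run of 63 bases in their principal transcripts. Their reads can be exchanged in the counting, so this ratio is uncertain. RPL3L, known from muscle, had 3 to 7 reads in control and 1 to 4 in STIL-knockdown libraries, and a difference was not detectable at this depth (limma adjusted p = 0.0914).

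RPL39L, known from the testis, was at 3.31, 3.16 and 3.25 log2 CPM in control (144 to 157 reads) and 3.55, 3.62 and 3.65 in STIL-knockdown libraries (198 to 211 reads). It rose by 0.36 (limma adjusted p = 0.00335), but kept its call only without control replicate 1 (0.0101 to 0.0189 with any other library left out). RPL39 had a log2 fold change of 0.05 at a limma adjusted p of 0.208. Their coding sequences of 153 bases differ at 8 positions, in capitals below, and share a run of 67 bases in their principal transcripts, so reads could be divided between them only where they cross a difference or the untranslated ends.
RPL39: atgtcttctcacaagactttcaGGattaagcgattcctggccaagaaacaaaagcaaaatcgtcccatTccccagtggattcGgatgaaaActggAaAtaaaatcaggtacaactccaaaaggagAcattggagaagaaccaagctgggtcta
RPL39L: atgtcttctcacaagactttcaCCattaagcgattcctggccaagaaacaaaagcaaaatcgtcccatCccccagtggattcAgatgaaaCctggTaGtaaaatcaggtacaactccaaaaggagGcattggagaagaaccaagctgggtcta
The value of RPL39L is therefore uncertain to the extent that reads of the more abundant RPL39 were assigned to it.

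**Figure D5:**
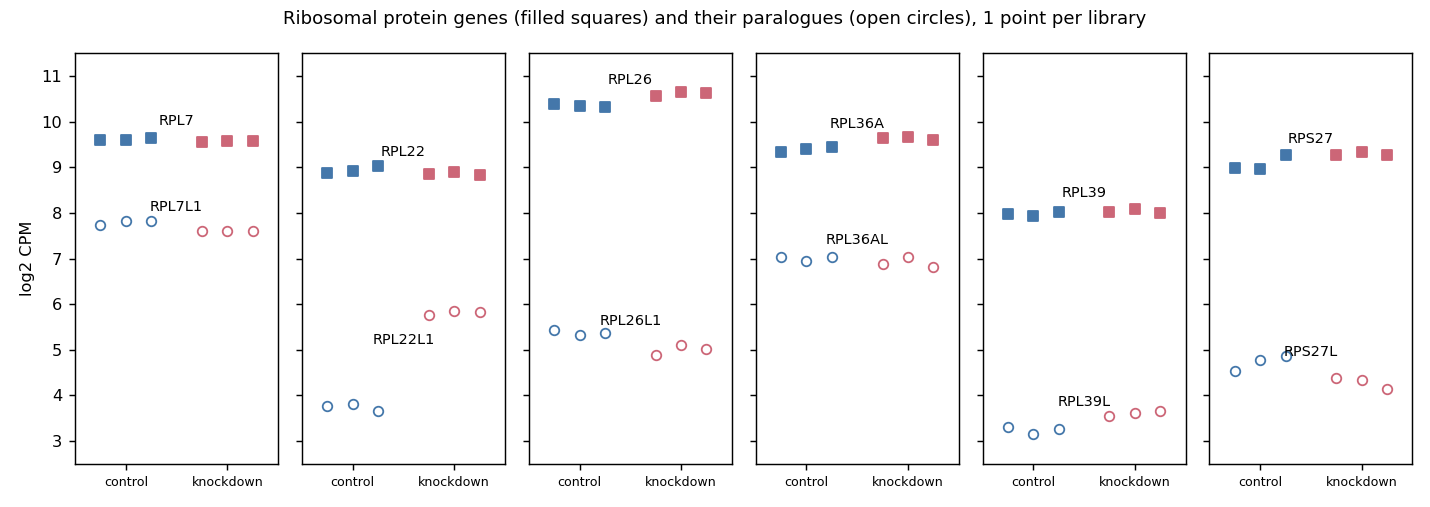
Log2 CPM (y axis) of 6 canonical genes (filled squares) and their paralogues (open circles) in the 3 control libraries (blue) and the 3 STIL-knockdown libraries (red), replicates 1 to 3 from left to right in each group. RPL22L1 rises by about 2 log2 units while the groups of RPL22 overlap, and RPL26L1 and RPS27L move down while RPL26 and RPS27 move up. RPL3L, at fewer than 8 reads, is not drawn.

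The canonical genes could carry a like uncertainty through their processed pseudogenes, of which the annotation lists a median of 10 per canonical gene by name and as many as 91 for RPL23A. Reads of a pseudogene and its parent could be exchanged in the counting. No pseudogene is among the genes of the set, so such an exchange is not shown here. Over the 77 genes the number of pseudogenes had r = -0.04 and Spearman's rho = 0.12 with the log2 fold change, as a description. The readthrough rows share exons with their parents. RPL17-C18orf32, RPL36A-HNRNPH2 and RPS10-NUDT3 had log2 fold changes of -0.22, -0.25 and -0.08, and none was called (limma adjusted p of 0.0598, 0.0631 and 0.379), nor by edgeR or DESeq2. For 2 of the 3 the unadjusted p of limma was under 0.05.

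RPS19BP1 was at 5.28, 5.12 and 5.22 log2 CPM in control and 5.76, 5.96 and 5.89 in STIL-knockdown libraries. It rose by 0.66 (limma adjusted p = 4.5e-07) and kept its call with each library left out.

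A list of 41 other genes of the pathway, RPS19BP1 among them, was read in the same fit. Called were 26 of 41 (63.4%, against 47.1% of all genes), 18 higher and 8 lower. Among the 11319 genes with a mean level of at least 1 log2 CPM, fitted alone, 65.8% were called. The shares of this list and of its parts below are therefore not read as an excess over expressed genes. FAU, which encodes a ribosomal protein fused to a ubiquitin-like protein and so escapes the naming rule, was at 7.66, 7.55 and 7.57 log2 CPM in control and 7.37, 7.45 and 7.43 in STIL-knockdown libraries. All STIL-knockdown libraries lay below all controls. FAU fell by 0.18 on the log2 scale (limma adjusted p = 9.1e-04), but lost its call with any library left out (up to 0.0315).

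Among 13 translation factors and associated genes whose mRNAs also begin with a pyrimidine tract, 7 rose and 2 fell (69.2% called, against 47.1% of all genes). The share was 65.8% over the genes with a mean of at least 1 log2 CPM, fitted alone. EEF2, the factor that moves the ribosome along the mRNA, was at 11.86, 11.76 and 11.81 log2 CPM in control and 12.31, 12.33 and 12.35 in STIL-knockdown libraries, and rose by 0.52 (limma adjusted p = 1.5e-07). The others that rose were EIF3F (0.33), EIF4B (0.29), PABPC1 (0.26), EEF1G (0.25), RACK1 (0.15) and EIF3E (0.11), while EEF1D (-0.34) and EEF1B2 (-0.13) fell, all as log2 fold changes. EEF1B2 and EIF3E kept their call in 1 of the 6 fits with a library left out and RACK1 in 3, with limma adjusted p of up to 0.0426, 0.0277 and 0.0176.

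Of 6 chaperones and escorts of ribosomal proteins, 3 rose, RPS19BP1 among them, and 1 fell (66.7% called, against 47.1% of all genes). Genes with a mean of at least 1 log2 CPM, fitted alone, were called at 65.8%. TSR2, which delivers RPS26 to the assembling small subunit, was at 5.52, 5.53 and 5.55 log2 CPM in control and 5.71, 5.81 and 5.66 in STIL-knockdown libraries. TSR2 rose by 0.19 (limma adjusted p = 0.00329), kept in 1 of the 6 fits with a library left out (up to 0.0338), whereas RPS26 fell. LTV1, an assembly factor of the small subunit, rose by 0.68 (limma adjusted p = 2.5e-08). BCCIP fell by 0.36 (limma adjusted p = 3.3e-06). LTV1 and BCCIP kept their call in each of the 6 fits.

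Of 12 genes of mTORC1 and of the control of pyrimidine tract mRNAs, 3 rose and 1 fell (33.3% called, below the 47.1% of all genes). EIF4EBP1, a repressor of cap-dependent initiation that mTORC1 inactivates, rose by 0.74 (limma adjusted p = 9.0e-09), and MYC, an activator of ribosome synthesis, rose by 0.73 (limma adjusted p = 9.8e-10). RPTOR, a subunit of mTORC1, rose by 0.35 (limma adjusted p = 3.7e-06), and RPS6KB2, an S6 kinase, fell by 0.54 (limma adjusted p = 6.7e-07). LARP1, which binds the tracts, had a log2 fold change of 0.06 and MTOR of -0.13, and neither was called (limma adjusted p of 0.182 and 0.0256). Transcript levels of these genes say nothing of their phosphorylation.

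Of the 10 ribosomal S6 kinases left out of the set by name, 8 were called, against 47.1% of all genes. RPS6KA2 was at -0.20, 0.14 and 0.25 log2 CPM in control and 2.30, 2.36 and 2.44 in STIL-knockdown libraries, with a log2 fold change of 2.30 at a limma adjusted p of 1.8e-07. RPS6KL1 (1.73), RPS6KC1 (0.55), RPS6KA5 (0.43) and RPS6KA6 (0.26) also rose, and RPS6KA1 (-0.62), RPS6KB2 and RPS6KA4 (-0.21) fell, as log2 fold changes. RPS6KL1 lay below 0 log2 CPM in every library, where the added count makes the size of a fold change uncertain. RPS6KA4 and RPS6KA5 kept their call in 1 of the 6 fits with a library left out and RPS6KA6 in none, with limma adjusted p of up to 0.0671, 0.0465 and 0.0623. These kinases share the letters of the symbol and not a place in the ribosome. RPS6KB1 and RPS6KB2 are counted both here and among the mTORC1 genes above.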

How the data were processed

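RNA-seq was conducted on 3 control and 3 STIL-knockdown libraries of EJ cells. Per the study's methods and the submitters' processing notes, the authors mapped reads with Bowtie2 (build hg38) and used RSEM to estimate how many reads belong to each gene. Versions are not given in the sources used here. The deposited log2 CPM values cover 15953 genes in all 6 libraries. Estimated counts were deposited by the authors for 15957 genes in control replicate 1 and the 3 STIL-knockdown libraries.

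Reads were recovered from the spacing of the log2 CPM values and came out whole, within 0.005 reads, for 87.1% to 87.4% of values. They differed from the deposited estimated counts by at most 0.00453 reads, and log2 CPM recomputed from them with edgeR 4.0.16 (TMM factors of 0.981 to 1.02, prior count 2) matched within 3.36e-05. Estimates that are not whole can come from reads that RSEM shared between genes, which was not examined here. The recovered reads were rounded for edgeR (quasi-likelihood test) and DESeq2 1.42.0, both used as alternatives.

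With limma 3.58.1 in R 4.3.3 (lmFit, eBayes with trend), differences were fitted to the log2 CPM as deposited, over all genes. Benjamini-Hochberg adjustment covered all genes, and genes were called at an adjusted p under 0.01. An exact permutation test over libraries was the other test of single genes. Other fits changed the variance trend, the normalization, the filter on low values, the prior count, the threshold, the tool, the library size, the block and the libraries. Replicates with the same number did not deviate together (r of -0.121, -0.0553 and -0.107), so no block was used.

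The named genes are the 5 highest and 5 lowest log2 fold changes of each subunit with a mean of at least 3 log2 CPM, all paralogues with their partners, the stalk and 5S particle genes, RPS6, RPSA, the readthrough rows, RPS19BP1 and the called genes of the other lists. RPL38 and other called members were added. Some genes of these lists enter the counts but are not reported here by name. Members and lists were chosen with earlier results of these data known. Gene positions, coding lengths and pseudogene names come from GENCODE 29 (GRCh38), and promoters from RefSeq (GRCh38.p14).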

Additional observations from a re-analysis of the deposited data

How the results depend on the processing

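The direction of every named called gene held in all of the 16 alternative fits that held the gene, while many calls did not. For many of these fits the direction was fixed in advance. The trend, the block and the threshold leave the log2 fold change unchanged, and without overlap no left-out library can reverse it. Without the mean-variance trend 11 genes of the set were called higher and 4 lower (large subunit 7 higher, small subunit 1 higher and 1 lower), and 4 other pathway genes lower. In that fit 36.7% of all genes were called in either direction. With quantile normalization 41 were called higher (large subunit 24, small subunit 14), with 1 small subunit gene lower and a median log2 fold change of the large subunit of 0.13. Over all genes 46% were called there in either direction. At an adjusted p under 0.05, 10 small subunit genes were higher and 4 lower, with 56.3% of all genes called in either direction. The cause was not tested. Leaving out a library gave 9 to 17 genes of the set called higher and 1 to 7 lower, 6 to 11 large subunit genes higher and 1 to 3 lower, 1 to 4 small subunit genes higher and 0 to 4 lower, and 13 to 15 other pathway genes higher and 4 to 7 lower. These fits have 5 samples and called 30.7% to 35.3% of all genes. The same fits gave medians of 0.03 to 0.07 (large) and 0.01 to 0.09 (small), and share differences of 0.33 to 0.46 (large) and 0.12 to 0.21 (small) percentage points. The share difference of the large subunit was 0.26 percentage points on the deposited scale. With the replicate number as a block, 18 genes of the set were higher and 8 lower (large 12 and 3, small 4 and 2), with 14 other pathway genes higher and 7 lower. The block fit called 43.2% of all genes in either direction. The pairing was not shown by the data. The fit following the 24 called canonical genes by name was chosen after seeing the data. edgeR kept all 24 and DESeq2 23 of them. At this depth only RPL3L, with 1 to 7 reads, was too low to compare among the genes of the set.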
